A study of Mus musculus with 4 samples.

Results

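The Tcrd enhancer, Ed, was 1 of 4 viewpoints from which chromatin contacts of the mouse Tcra/Tcrd locus were read by 4C-seq, and its 4 libraries are described here out of 16 in all. They were chosen by the viewpoint named in each deposited library, with 2 libraries of CD4- CD8- thymocytes (DN) and 2 of naive B splenocytes (B). DN cells came from litters of Rag2-/- mice of the C57BL/6 strain, 3 weeks old. B cells came from the spleen of wild-type C57BL/6 mice, whose age is not given, and the protocol given for them repeats that of the thymocytes. Genotype and organ therefore changed together with cell type. The labels do not say whether the 2 samples of a cell type came from separate litters or animals, and p-values here cover the spread between these samples alone, which may be technical. 4C-seq has no gene readout by which the cell labels could be checked.

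In 4C-seq, crosslinked chromatin is cut with HindIII and religated, and inverse PCR from 1 fragment, the viewpoint, recovers the fragments that were ligated to it. A read on a HindIII fragment is a contact of that fragment with the viewpoint. The T cell receptor delta genes lie inside the alpha locus, with the Trav and most Trdv gene segments on one side and the Traj segments, Trac and the neighbouring gene Dad1 on the other. Ed is the enhancer that drives germline transcription and recombination of the delta gene segments in double-negative thymocytes. Rag2 is required to cut antigen receptor genes, so Rag2-/- thymocytes keep the locus in germline order and stop at the double-negative stage. TEA is a germline promoter element at the start of the Traj array, and together with INT1 and INT2 it served as the other viewpoints of the study. The study concerns a loop of the chromatin at Tcra/Tcrd, and Ed lies between INT1 and INT2 on one side and TEA on the other.

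The Ed viewpoint fragment lay at chr14:54763263-54765182 (build mm9). The fragment of TEA was 7.25 kb away towards higher coordinates, and those of INT1 and INT2 were 86.9 and 81.8 kb away towards lower coordinates. In the gene order of the RefSeq annotation, which is of another build, the lower-coordinate side holds the Trav genes and the higher-coordinate side Traj, Trac and Dad1. No gene was assigned to single fragments. The viewpoint fragment and the nearest fragment with reads on each side were left out throughout. The neighbour on the lower side (chr14:54752613-54762701) alone carried 44974 and 16137 RPM in DN replicates 1 and 2, and 18118 and 21577 RPM in B. Between this neighbour and the viewpoint lies 1 fragment that no Ed library captured. Results with the neighbour kept in are given where they differ.

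The Ed libraries were shallow. Mapped reads numbered 1220738 and 3227300 in DN, against 3531308 and 6283713 in B. Between 72.97% and 89.1% of reads fell on other chromosomes, and the reads on chromosome 14 outside the left-out fragments numbered 114227, 601760, 252607 and 392568 in DN replicates 1 and 2 and B replicates 1 and 2. All shares below are percent of this chromosome 14 total unless stated otherwise. Mapped fragments are those listed in at least 1 of the 16 libraries of all viewpoints, not a digest of the genome, and they covered 98.8% of the 2 Mb around Ed. Of 595 HindIII fragments mapped within 1 Mb, 36.1% and 58.5% had a read in DN and 25.04% and 27.6% in B. Only 69 fragments had reads in all 4 libraries, with a median length of 3685 bp against 1187.5 bp for the 194 without a read in any. Of 243 fragments captured in all 4 TEA libraries, 49 were captured in all 4 Ed libraries. A fragment without reads allows up to 3 reads, which is 26.3 and 4.99 RPM of the chromosome 14 total in DN and 11.9 and 7.64 in B. No molecular identifiers mark the PCR reads, which are therefore not independent molecules, and these limits cover counting error only. Per the file headers the alignment of each DN library lay in a folder of its own and those of both B libraries in 1 further folder, so folder and cell type cannot be told apart.

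Some fragments had read counts equal to those of another fragment. Of 158 fragments within 1 Mb that had at least 10 reads in at least 2 libraries, 32 had equal counts in every library, 27 of them exactly and the others within 3 reads or 5%, whichever is larger. Of these 32, 31 lay among the 96 such fragments of the lower-coordinate side. Exactly equal counts were also found across the genome, at 2404 of 7358 fragments with at least 10 reads in at least 2 libraries (32.7%). Between 500 and 1000 kb on the lower side, 26 of 31 fragments had equal counts. They held 78.9% and 51.2% of the reads between 500 and 1000 kb in DN and 71.4% and 87.4% in B. Of the 32 fragments, 30 were in 39 pairs with members 293 to 703 kb apart, and in 24 pairs 300 to 400 kb apart. In 30 of the 39 pairs 1 member lay beyond 1 Mb, as far as 1412 kb below the viewpoint. The other 2 fragments had no equal within 1 Mb of themselves. For example, fragments 972 and 586 kb below the viewpoint carried 390 and 390 reads in DN replicate 1, 434 and 436 in DN replicate 2, 212 and 212 in B replicate 1, and 142 and 142 in B replicate 2. From these files it cannot be told from which fragment of a pair the reads came. The Trav array of this strain is known to contain large duplicated blocks. Whether these account for the equal counts was not tested. Results that rest on this region are given with and without these fragments.

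**Figure D1:**
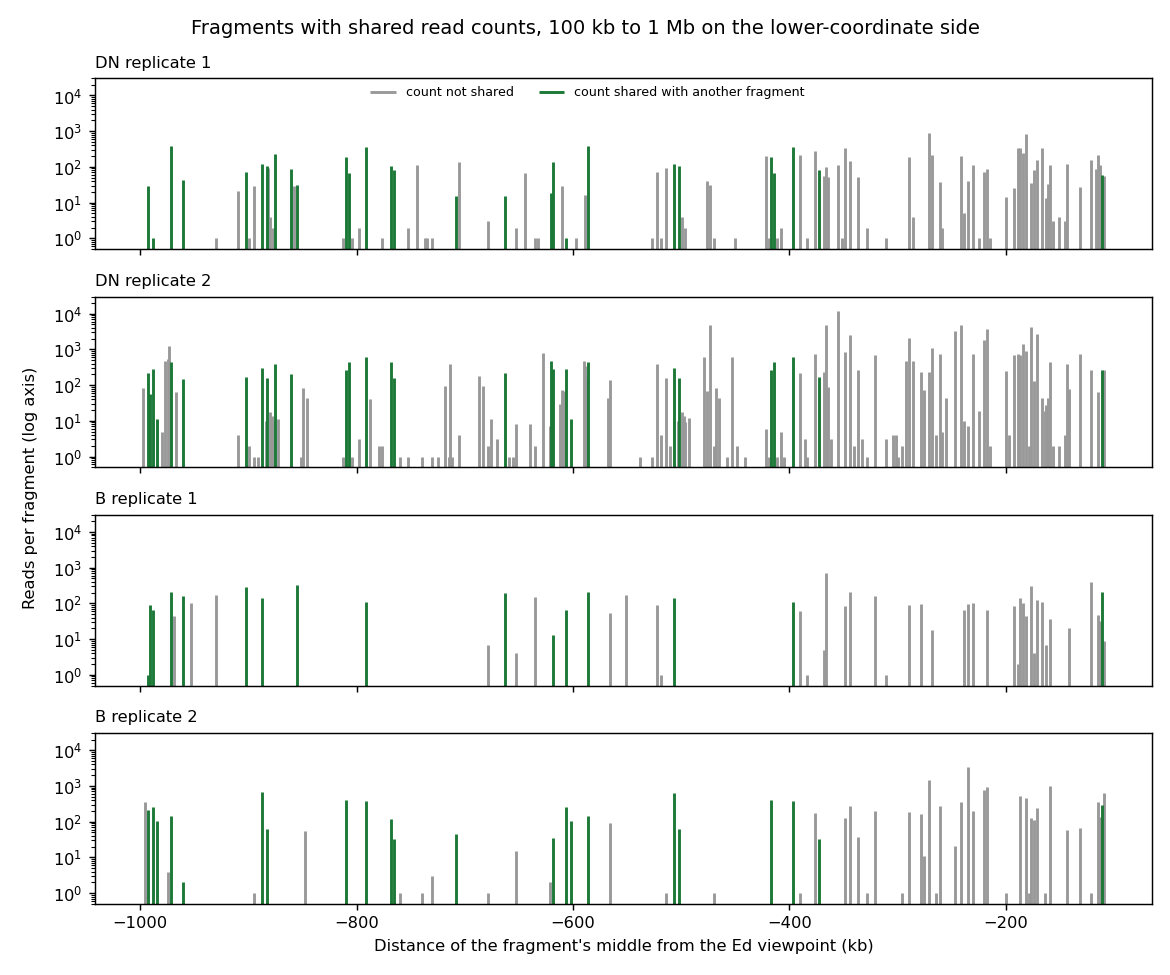
Reads per HindIII fragment (log axis) in each Ed library, from 100 kb to 1 Mb below the viewpoint, against distance in kb; green lines are fragments whose read counts are shared with another fragment. Beyond 500 kb green lines are frequent in all 4 libraries, and nearer than 300 kb nearly all lines are grey.

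The fall of contacts with distance was compared first, in 18 bins, 9 on each side. As a description, the mean value per mapped fragment was set against that of fragments on other chromosomes in the same library. Without the left-out fragments, the bin within 25 kb had 2 mapped fragments on the lower side and 10 on the higher side, so the 2 sides are not like for like there. Within 25 kb on the lower side the mean value stood 2046- and 9581-fold above other chromosomes in DN and 1338- and 604-fold in B. It fell to 51.9- and 86.7-fold in DN and 7.5996- and 10.1-fold in B at 100 to 200 kb. DN stayed above B out to 1000 to 2000 kb, where it was 5.01- and 7.38-fold above other chromosomes in DN and 1.48- and 1.17-fold in B. On the higher side contacts were 625- and 613-fold above other chromosomes within 25 kb in DN and 153- and 161-fold in B. At 1000 to 2000 kb on that side they were 0.794- and 1.33-fold in DN and 1.86- and 0.882-fold in B, near the level of other chromosomes in both cell types.

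**Figure D2:**
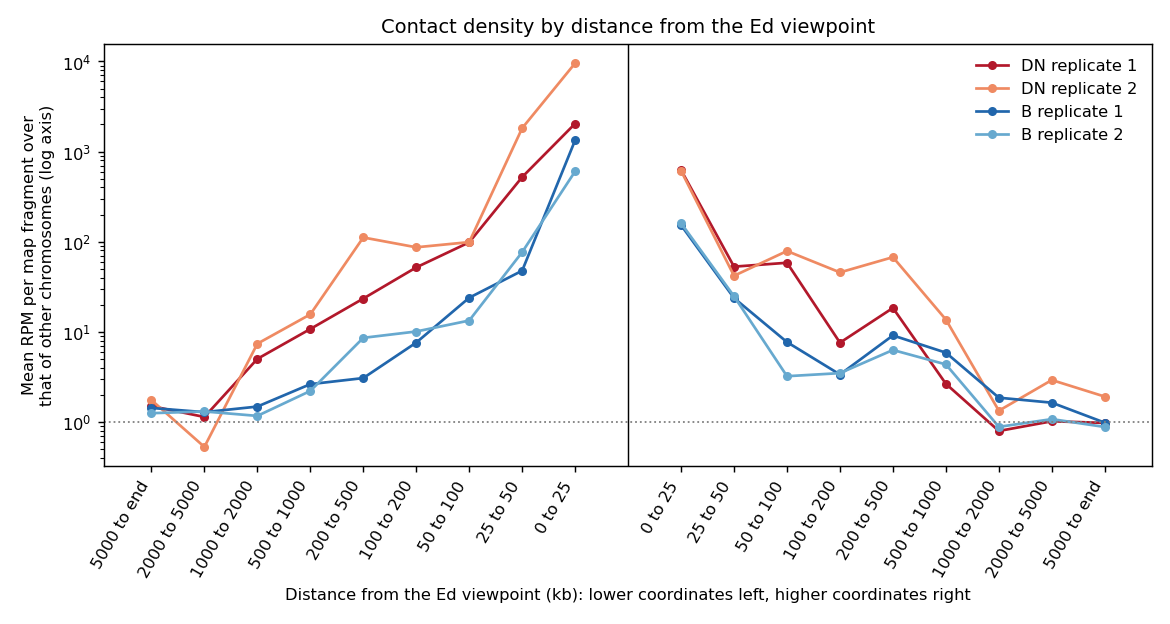
Mean RPM per mapped fragment over the mean RPM of other chromosomes (log axis) in each Ed library, in bins of distance in kb on both sides; the dotted line marks the level of other chromosomes. With the viewpoint and its neighbours left out, both DN lines lie above both B lines from 0 to 2000 kb on the lower side, and on the higher side from 0 to 500 kb.

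As a share of chromosome 14 reads, DN contacts rose in 2 of 18 bins (11.1%) and fell in 0 (0%) by limma with Benjamini-Hochberg adjustment, while 6 of 18 bins had an unadjusted p under 0.05. The first was 25 to 50 kb on the lower side, which took 10.6% and 17.7% of reads in DN and 1.48% and 2.73% in B. Both DN libraries were higher than both B libraries there, by 6.82-fold in the fit (log2 change 2.77, SE 0.58, adjusted p 0.0154). The second was 50 to 100 kb on the higher side, with 1.98% and 1.28% in DN and 0.397% and 0.191% in B. This was 5.75-fold higher in DN, again with no overlap (log2 change 2.52, SE 0.59, adjusted p 0.0157).

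Both bins stayed higher in DN under every alternative run, but their size and their calls did not hold in all. Both were lost without DN replicate 1, DN replicate 2 or B replicate 1, and the higher-side bin also without B replicate 2, where the lower-side bin kept an adjusted p of 0.0357 in limma. With library size taken within 1 Mb of the viewpoint, the log2 changes were 1.41 and 1.16 with limma adjusted p of 0.0840 and 0.164. With each captured fragment counted once, whatever its reads, the lower-side bin was at 0.78 (limma adjusted p 0.0538) and the higher-side bin at 1.45 (0.00923). On the lower side the adjacent bin of 0 to 25 kb had 6.92% and 15.5% in DN, against 6.91% and 3.59% in B. Its fitted difference of 1.06 on the log2 scale did not pass (limma adjusted p 0.167) and became -0.30 with library size within 1 Mb. With the lower neighbour of the viewpoint kept in, this difference shrank to 0.091, so the higher level in DN there rests on leaving that neighbour out.

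The other bins showed an ordered pattern that did not pass the test. With the lower neighbour of the viewpoint left out, DN exceeded B in both libraries in 11 of all 18 bins (61.1%). It fell short of both B libraries in 6 (33.3%). On the lower side DN then lay above B in every bin out to 2000 kb, with the limit given above for 0 to 25 kb. Fitted log2 differences were 1.23 at 50 to 100 kb, 1.70 at 100 to 200 kb, 2.07 at 200 to 500 kb, 1.19 at 500 to 1000 kb and 0.97 at 1000 to 2000 kb. Of these, the 50 to 100, 500 to 1000 and 1000 to 2000 kb bins turned to -0.14, -0.18 and -0.39 with library size within 1 Mb. Beyond that point the order turned. At 2000 to 5000 kb the bin held 1.28% and 0.285% in DN and 2.20% and 2.58% in B, a log2 difference of -1.98 (limma adjusted p 0.0624). On the higher side DN lay above B at 0 to 25 kb (0.74), 100 to 200 kb (1.20) and 200 to 500 kb (0.98), which turned to -0.62, -0.16 and -0.39 with library size within 1 Mb. DN lay below B at 500 to 1000 kb (-0.99), 1000 to 2000 kb (-1.55, limma adjusted p 0.0624) and 2000 to 5000 kb (-0.86). With reads of all chromosomes these differences were -0.0021, -0.56 and 0.12. Beyond 5000 kb the lower side held 24.8% and 13.9% in DN and 36.2% and 36.4% in B, and the higher side 23.02% and 21.6% in DN and 35.3% and 36.4% in B. The 25 to 50 kb bin of the higher side overlapped in shares, with 0.805% and 0.306% in DN and 0.551% and 0.664% in B. Leaving out the fragments with shared counts raised the difference at 500 to 1000 kb on the lower side from 1.19 to 1.88, and the calls then numbered 5 higher and 2 lower.

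How these differences are signed depended on the library size. Spread at the density seen on other chromosomes, reads would take up 44.5% and 21.3% of the chromosome 14 total in DN and 67.9% and 78.2% in B, so the total used as library size holds different parts of such reads in the 2 cell types. With library size within 1 Mb, 0 bins were called higher in DN and 7 lower, and with the excess over other chromosomes 0 and 6. With reads of all chromosomes 7 were called higher and 0 lower. TMM factors gave 4 and 2, and DESeq2 on recovered reads 2 and 6. The median change over the bins moved from 0.97 to -0.39 with library size within 1 Mb and to 1.94 with all chromosomes. The 3 library sizes shift all bins nearly alike, so the 25 to 50 kb bin on the lower side and the 50 to 100 kb bin on the higher side were the highest on their side, in DN over B, under each of them.

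**Figure D3:**
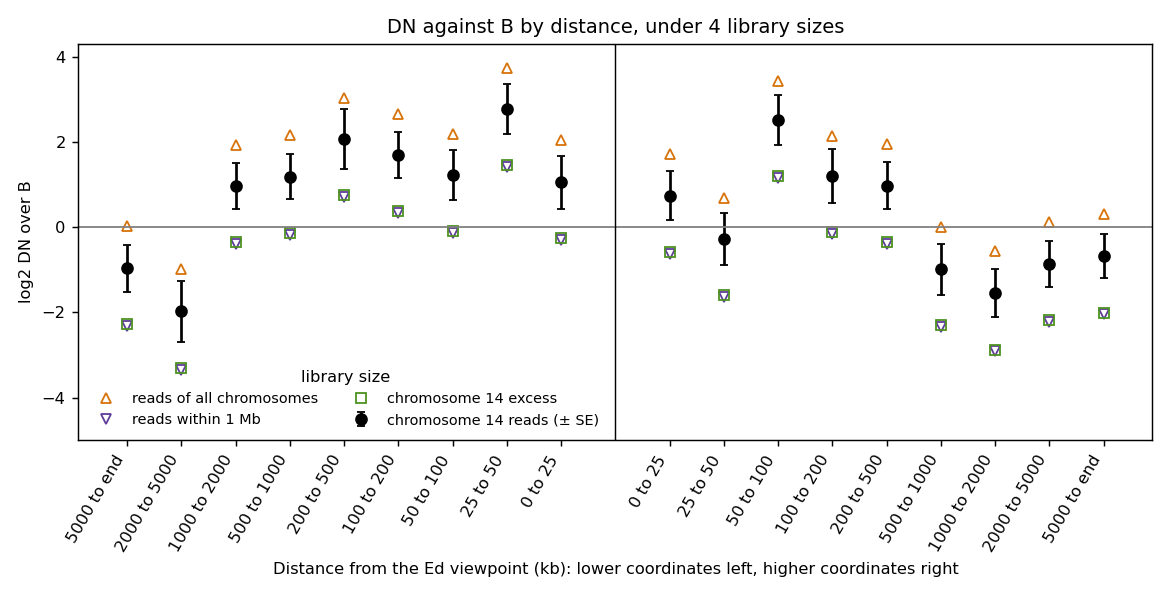
Fitted log2 change of DN over B in each distance bin (kb) under 4 library sizes; black points with bars are the values with chromosome 14 reads ± SE from 2 libraries per cell type. The shapes keep their order while the whole set moves up with reads of all chromosomes and down with reads within 1 Mb.

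Reads were then divided by side, since these shares do not depend on the chromosome 14 total. Of the reads between 100 kb and 1 Mb, the lower-coordinate Trav side held 76.8% and 68.2% in DN and 39.8% and 57.9% in B. The cell types did not overlap, with means of 72.5% ± 6.11 and 48.8% ± 12.8 (SD, n = 2). An exact two-sided permutation test gave p = 0.333, the smallest that 2 samples against 2 allow, so the comparison cannot pass 0.05. Without the shared-count fragments the shares were 70.1% and 65.8% in DN and 29.5% and 49.9% in B. Within 100 kb the lower side held 60.8% and 84.2% in DN and 66.2% and 55.7% in B, and the cell types overlapped. Of all reads within 1 Mb it held 65.1% and 79.1% in DN and 58.1% and 56.5% in B. This last order was lost with the lower neighbour of the viewpoint kept in, where the shares were 82.8% and 81.7% in DN and 81.1% and 83.8% in B.

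The concentration of reads near the viewpoint also differed in level. Within 1 Mb lay 46.6% and 60.3% of chromosome 14 reads in DN and 20.8% and 20.4% in B (exact permutation p = 0.333). With the lower neighbour kept in the shares were 63.9%, 63.5%, 36.8% and 40.9% in the same order. After subtraction of the density of other chromosomes they were 82.2% and 76.0% in DN and 59.9% and 85.5% in B, and the cell types overlapped. The steepness of the fall overlapped between the cell types on both sides. The slope of log density on log distance within 1 Mb was -1.35 and -1.51 in DN and -1.50 and -1.30 in B on the lower side. On the higher side it was -1.19 and -0.70 in DN and -0.74 and -0.82 in B. On the lower side the slopes were less steep in both DN libraries than in both B libraries under 4 alternatives, each with an exact permutation p of 0.333. They were -0.93 and -0.88 in DN, against -1.10 and -1.07 in B, with capped fragments. With fragments counted once they were -0.28 and -0.15 in DN, against -0.51 and -0.42 in B. With the lower neighbour kept in they were -1.61 and -1.47 in DN, against -1.68 and -1.62 in B. Without the shared-count fragments they were -1.63 and -1.62 in DN, against -1.72 and -1.66 in B. Of 13 such shares and slopes, 4 did not overlap, and every adjusted exact permutation p was 1.

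Along the locus, the 40 windows of 50 kb within 1 Mb placed the order of the cell types. In 17 of 40 windows (42.5%) the DN values were both above the B values, and in 6 (15%) both were below them. Of the 20 windows on the lower side, 14 had DN above B and 0 had DN below B. Of the 20 on the higher side, 3 had DN above B and 6 had DN below B, and all 6 were among the 8 windows beyond 600 kb. The order moved with the library size. The fitted difference was above 0 in 32 of 40 windows with chromosome 14 reads (median 1.19 on the log2 scale) and in 18 of 40 with library size within 1 Mb (median -0.18). On the lower side these were 20 and 13 of 20 windows, and on the higher side 12 and 5 of 20. Without the shared-count fragments the fitted difference was above 0 in 30 of 40 windows (median 1.09). It turned from 1.86 to -0.53 at 900 to 950 kb on the lower side, and from 0.85 to -2.08 at 950 to 1000 kb. The counts of order above include these fragments. In limma 1 window was called higher in DN (2.5%) and 1 lower (2.5%), and 10 of 40 had an unadjusted p under 0.05.

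The window called higher lay 350 to 400 kb below the viewpoint and took 1.10% and 3.16% in DN and 0.345% and 0.147% in B (log2 change 3.04, SE 0.87, limma adjusted p 0.0307). Its tallest fragment, at chr14:54407375-54411753, had 111 and 11991 reads in DN, against 0 and 0 in B. Without that fragment the window held 1.003% and 1.16% in DN and the same shares as before in B. The call was lost without DN replicate 1, DN replicate 2 or B replicate 2, and without the shared-count fragments (3.60, limma adjusted p 0.0536). It was also lost with library size within 1 Mb (1.68, limma adjusted p 0.412), with the excess over other chromosomes (1.73, limma adjusted p 0.300), with TMM factors (1.90, limma adjusted p 0.264), without the mean-variance trend (limma adjusted p 0.236) and in DESeq2 (2.15, adjusted p 0.0856).

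The window called lower lay 800 to 850 kb above the viewpoint, with 0.00788% and 0.00233% in DN and 0.324% and 0.996% in B (log2 change -6.71, SE 2.06, limma adjusted p 0.0330). The underlying reads numbered 9 and 14 in DN and 818 and 3911 in B. In B replicate 2, 3474 of the reads lay on 1 fragment of 11, and without it the window held 0.111% there, still above both DN libraries. The call was lost without DN replicate 1 or B replicate 1, with a pseudocount of 1, without the shared-count fragments (-6.80, limma adjusted p 0.0536), with library size within 1 Mb (-8.21, adjusted p 0.120) and with the excess over other chromosomes (-8.11, limma adjusted p 0.0549). With each captured fragment counted once it shrank to -0.33 (limma adjusted p 0.849), as the libraries had captured 1 and 5 fragments in DN and 5 and 3 in B.

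Taken as 1 stretch, 600 to 1000 kb on the higher side was where contacts of B cells stood above those of DN thymocytes. It held 0.295% and 0.117% in DN and 1.65% and 1.63% in B. Against other chromosomes of the same library, the density was 1.69- and 1.41-fold in DN and 6.23- and 5.33-fold in B. The fitted difference was below 0 in 7 of 8 windows with chromosome 14 or all-chromosome library sizes, and in all 8 with library size within 1 Mb. Leaving out each library's highest fragment gave 0.224% and 0.0791% in DN and 1.40% and 0.747% in B. With each captured fragment counted once, the fitted difference was above 0 in 6 of the 8 windows, and of 103 mapped fragments 12 and 29 were captured in DN, against 26 and 22 in B. The stretch was bounded after its values were seen and was given no test. On the lower side the wider stretch of 500 to 1000 kb had the opposite order, 3.00% and 2.09% in DN and 1.12% and 1.08% in B. Most of its reads lay on shared-count fragments, as given above. Its log2 difference of 1.19 turned to -0.18 with library size within 1 Mb.

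**Figure D4:**
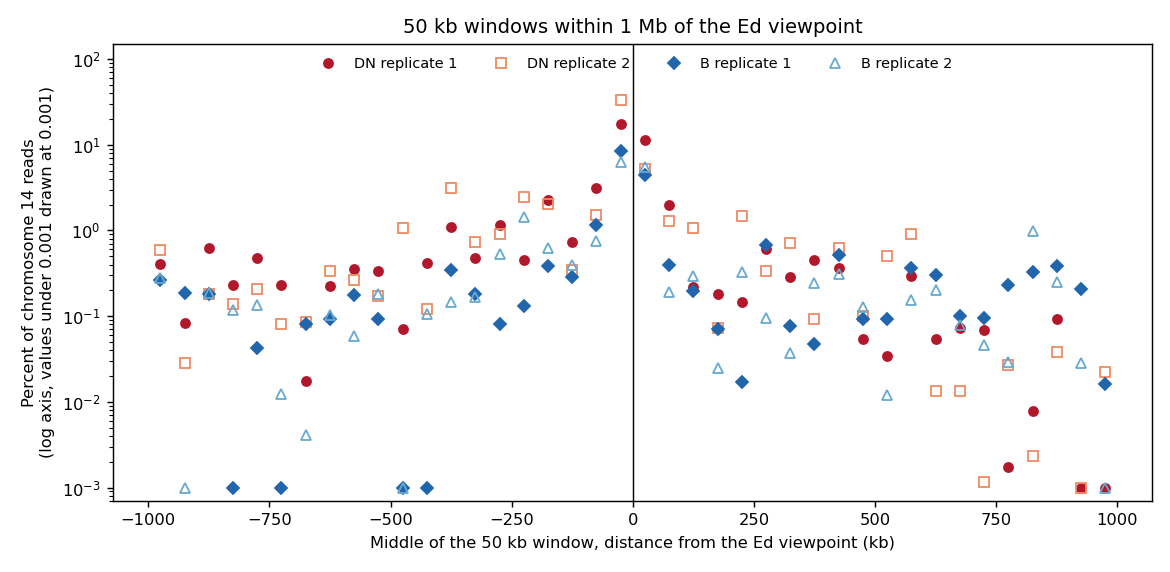
Percent of chromosome 14 reads (log axis) in each 50 kb window against its distance from the Ed viewpoint in kb; each symbol is 1 of the 4 libraries, and values under 0.001 are drawn at 0.001. DN symbols lie above B symbols in most windows on the left, and both B symbols lie above both DN symbols in 6 of the 8 windows beyond 600 kb on the right.

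At single fragments, 229 within 1 Mb were tested, and limma called 0 higher (0%) and 0 lower (0%) in DN. At an unadjusted p under 0.05 there were 29, and the lowest adjusted p was 0.253. In simulated data this test recovered 0% of 4-fold and 0.351% of 16-fold changes, so 0 calls do not show that fragments were alike. On the recovered reads edgeR called 2 higher and 0 lower and DESeq2 13 higher and 8 lower. With fragments capped at the 95th percentile of each library, which hides spread between replicates above the cap, limma called 6 higher. The DN values were both above the B values at 80 of the 229 (34.9%) and both below them at 13 (5.68%).

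The lower-side bin of 25 to 50 kb was made of several neighbouring fragments that were each higher in DN. The fragment 30.0 kb below the viewpoint (chr14:54733266-54735091) took 4.44% and 7.45% in DN and 0.752% and 1.40% in B (log2 difference 2.48, limma adjusted p 0.253). The next one, 33.0 kb below, had 3.39% and 1.34% in DN, against 0.208% and 0.341% in B. Fragments at 37.4, 31.6 and 28.6 kb had 0.869%, 0.720% and 0.627% in DN replicate 1, 0.398%, 0.607% and 1.58% in DN replicate 2, 0.140%, 0.151% and 0.150% in B replicate 1, and 0.141%, 0.126% and 0.0988% in B replicate 2. At each of these 5 fragments both DN libraries stood above both B libraries, and 4 of them were among the 6 called with capped fragments. A capped fragment takes the cap of its library, so spread between replicates above the cap is lost. The fragment at 30.0 kb, not called when capped, then had a log2 difference of 0.76. The fragment 14.2 kb below the viewpoint, where the uncapped cell types overlapped, had the same 0.76. The 5 fragments were taken from a bin already called higher in DN, so their order and the capped calls add no separate support. The farthest one of this group, at 39.9 kb, was high in DN replicate 2 (6.35%) and lower in DN replicate 1 (0.422%) than in B replicate 2 (0.622%).

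Nearer to the viewpoint, the fragment 14.2 kb below it had 3.996% and 7.22% in DN, against 4.99% and 2.13% in B, and the cell types overlapped. The fragment 19.0 kb below it had 2.93% and 8.32% in DN, against 1.91% and 1.46% in B, with no overlap. Within 1 Mb, DN replicate 2 had its 4 highest fragments between 14 and 40 kb below the viewpoint, whereas the highest fragment of DN replicate 1 was that of TEA on the other side. At 24.4 kb above the viewpoint the order was the reverse, with 1.03% and 0.440% in DN and 1.36% and 1.41% in B (log2 difference -1.04, limma adjusted p 0.553).

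**Figure D5:**
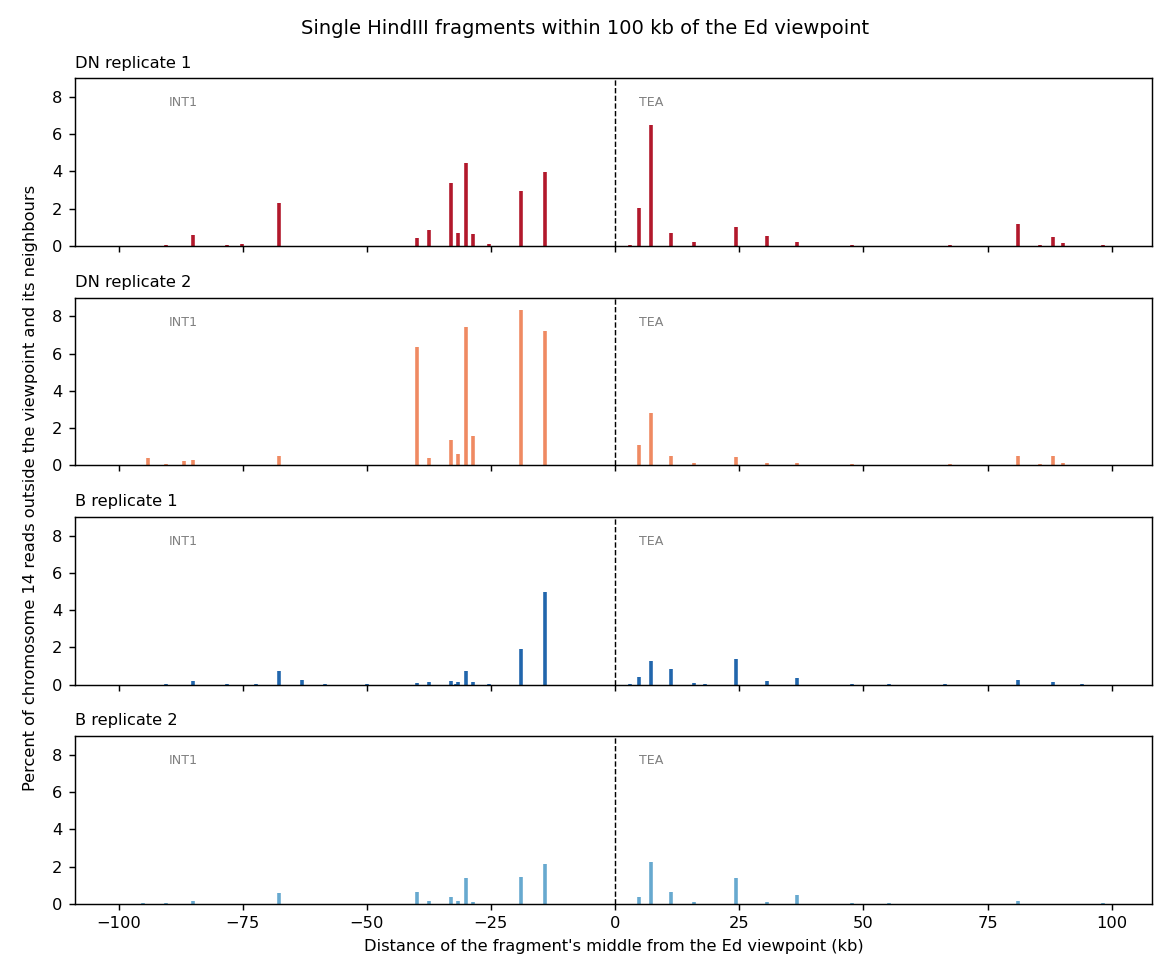
Percent of chromosome 14 reads on each HindIII fragment within 100 kb of the Ed viewpoint, 1 panel per library, against distance in kb; the dashed line is the viewpoint, and the viewpoint and its neighbours are left out. The fragments 30.0 and 33.0 kb below the viewpoint are taller in both DN panels than in either B panel, while the fragment 14.2 kb below is tall in 3 panels.

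The fragment of the TEA viewpoint, 7.25 kb from Ed, took 6.51% and 2.82% in DN and 1.26% and 2.27% in B. Both DN libraries were higher, but the difference of 1.34 on the log2 scale (SE 0.63) did not pass (limma adjusted p 0.373), and it was -0.020 with library size within 1 Mb. In deposited RPM, scaled to all mapped reads, the same pair read from the other end gave the same order. Ed libraries had 6087 and 5267 on the TEA fragment in DN and 901 and 1416 in B. TEA libraries had 1700 and 2198 on the Ed fragment in DN and 169 and 173 in B. In reads, the latter were 3464 and 21952 against 187121 and 2198330 within 1 Mb of TEA in DN. In B they were 1936 and 2991 against 170085 and 279345. Set on reads within 1 Mb, the cell types overlapped from the TEA end.

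The fragments that hold INT1 and INT2 were almost without reads from Ed. INT1 had 0 and 1369 reads in DN, against 0 and 0 in B, and INT2 had 0 and 5 in DN, against 0 and 0 in B. The fragment between them (chr14:54677630-54680981) had reads in all 4 libraries, with 0.609% and 0.265% in DN and 0.163% and 0.132% in B. Read from the other end, the Ed fragment was captured in every library. INT1 libraries had 387 and 1055 deposited RPM on it in DN and 86.2 and 54.1 in B, and INT2 libraries had 1144 and 1250 in DN, against 50.3 and 85.3 in B. In deposited RPM the order of cell types was thus the same from INT1, INT2 and TEA. From Ed itself the INT1 and INT2 fragments gave no value for 3 of 4 libraries and 5 reads or 1369 reads in DN replicate 2. The RPM of different viewpoints are set on each library's own mapped reads and are given side by side only.

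Single-fragment peaks were fragments with at least 10 reads and at least 5 times the mean of the 10 fragments on each side in both libraries of a cell type. There were 13 in DN, 5 on the lower and 8 on the higher side, and 13 in B, 10 on the lower and 3 on the higher side, with 4 in common. Of these, 5 peaks of DN and 6 of B were on shared-count fragments, and without such fragments 8 remained in DN, 7 in B and 1 in common. That common peak lay 81.1 kb above the viewpoint (chr14:54841960-54848613), with 1.18% and 0.512% in DN and 0.266% and 0.124% in B. A second peak of DN lay beside it at 88.2 kb, with 0.457% and 0.4999% in DN and 0.129% and 0 in B. These 2 fragments held most of the 50 to 100 kb bin that rose in DN. Farther out on the higher side, peaks of DN lay at 310, 437, 567 and 588 kb. At 310 kb the shares were 0.278% and 0.682%, against 0.0760% and 0.0372% for the B libraries. Of the B libraries, replicate 2 also exceeded 5 times the neighbours at 310 kb (7.83 times) and at 567 kb (25.5 times). Its share at 567 kb was 0.119%, just under the 0.138% of DN replicate 1, while B replicate 1 was without reads. At 437 and 588 kb neither B library exceeded 2.51 times the neighbours. The only peak of DN on the lower side without shared counts, at 473 kb, rested on DN replicate 2, with 4883 reads against 32 in DN replicate 1 and 0 and 0 in B.

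In B the 2 highest peaks were close to the viewpoint. The fragment 14.2 kb below it (4.99% and 2.13% in B) and the fragment 67.6 kb below it (0.705% and 0.561% in B, 2.33% and 0.493% in DN) passed the peak rule in B alone, although DN had reads there at levels that overlapped those of B. In DN the first stood at 3.51 and 5.95 times its neighbours, and the second at 22.02 and 1.27 times. The next highest peak of B lay 234 kb below the viewpoint, with 0.0388% and 0.847% in B and 0.0350% and 0.00116% in DN. Both DN libraries were below both B libraries there (log2 difference -4.38, limma adjusted p 0.414), and most of its reads were in B replicate 2 (98 and 3325 in B). Of the 13 peaks of B, 11 had reads in both DN libraries and 1 had none, the fragment 945 kb above the viewpoint with 314 and 57 reads in B. Just inside the rule stood a DN fragment at 88.2 kb with 5.37 times its neighbours, and just outside one at 809 kb on the lower side with 4.83 times. In B the fragment 14.2 kb below the viewpoint was just inside with 5.20 times, and 1 at 493 kb on the higher side just outside with 4.81 times. With 10 times the neighbours in place of 5, the peaks numbered 4 in DN, 5 in B and 0 in common.

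The Ed viewpoint was compared with TEA, the nearest other viewpoint, to ask where its differences between cell types stand apart. In each sample the log2 value of a window from TEA was taken from that of Ed, and the differences were compared between DN and B over 40 windows. By limma 0 windows were called higher (0%) and 0 lower (0%), and 3 had an unadjusted p under 0.05. The lowest was 800 to 850 kb on the higher side, with a difference of -7.24 (SE 1.17, limma adjusted p 0.0991). As percent of all chromosome 14 reads, Ed had 0.00327% and 0.00165% there in DN and 0.223% and 0.618% in B, whereas TEA had 0.0523% and 0.129% in DN, against 0.0411% and 0.0619% in B. From 600 to 1000 kb TEA had 0.433% and 1.16% in DN, against 1.15% and 1.39% in B. Without the shared-count fragments 1 window was called higher and 1 lower, so the count rests on that choice. In simulated data this test recovered 0.5% of 4-fold and 32.5% of 16-fold changes, so 0 calls do not show that the viewpoints were alike.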

How the data were processed

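The deposited values are RPM per HindIII fragment, reads scaled by the authors to each library's mapped reads. Per the submitters' processing notes CASAVA, Bowtie and build mm9 were used, with versions and settings not given in the sources used here. In the 4 Ed libraries 100% of values equalled a whole number of reads within 0.01 read once divided by the library's smallest step, and reads were recovered in this way. A fragment not listed was taken as 0. The averaged files were not used.

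As library size served the reads of chromosome 14 without the viewpoint and the nearest fragment with reads on each side, a neighbour rule settled after the files were seen. Bins, 50 kb windows and fragments (the last 2 only where the mean reached 10 reads) were summed and fitted as log2 of RPM of that total with a pseudocount of 10, which understates changes of low values, in limma 3.58.1 (R 4.3.3), DN against B, two-sided, with a mean-variance trend except for bins. Adjusted p is Benjamini-Hochberg with a threshold of 0.05. Shares were compared by exact permutation tests. Count tests on recovered reads used edgeR 4.0.16 and DESeq2 1.42.0. On simulated data with known changes, the limma fits recovered 51.2% of 4-fold and 97.5% of 16-fold changes in bins. These shares were 3% and 47.5% in windows, 0% and 0.351% in fragments, and 0.5% and 32.5% in the difference from TEA. A feature that was not called may therefore still differ by such folds.

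The bins, windows and peak rule, and the libraries themselves, were chosen with earlier results of these data known. Named are every bin, windows and fragments with adjusted p under 0.05 and no overlap (up to 10 and 15 per direction), the viewpoint fragments and up to 10 peaks per cell type; other fragments were chosen after their values were seen. Alternatives were other library sizes, TMM factors, pseudocounts of 1 and 100, capping, counting fragments once, no filter, other window sizes, a replicate block and each library left out. Added after the data were seen were the next map fragment as neighbour, leaving out shared-count fragments, and a crossed block. Figures were made with matplotlib 3.10.9.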

Additional observations from a re-analysis of the deposited data

How the results depend on the processing

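Calls given as higher and lower in DN were 2 and 0 bins, 1 and 1 windows, 0 and 0 fragments and 0 and 0 windows of the difference from TEA. Bins gave 0 and 7 with library size within 1 Mb, 7 and 0 over all chromosomes, 0 and 6 with the chromosome 14 excess, 4 and 2 with TMM factors, 3 and 3 with a mean-variance trend, 7 and 0 with fragments counted once or capped, 3 and 2 in edgeR, 2 and 6 in DESeq2, 5 and 2 without shared-count fragments and 4 and 1 without 10 kb around the viewpoint. Windows gave 0 and 0 with library size within 1 Mb, with the excess and without shared-count fragments, 5 and 1 over all chromosomes, 0 and 1 with TMM factors, 1 and 0 with a pseudocount of 1 and with 25 kb windows, 1 and 2 without the trend, 11 and 1 counted once, 6 and 1 capped, 2 and 1 in edgeR and with 100 kb windows, and 1 and 4 in DESeq2. The higher window without the trend and in DESeq2 was that of 450 to 500 kb on the lower side, not that of 350 to 400 kb. Fragments gave 1 and 0 with a pseudocount of 100, 6 and 0 capped, 2 and 0 in edgeR and 13 and 8 in DESeq2. The difference from TEA gave 1 and 1 without shared-count fragments and 0 and 1 with TMM factors or capped. With each library left out, bins ranged from 0 to 2 higher and 0 to 1 lower, windows from 0 to 3 both ways, fragments from 0 to 61 higher and 0 to 1 lower, and the difference from TEA from 0 to 0 higher and 0 to 2 lower.

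Replicate numbers were shared between cell types, but deviations of same-numbered libraries did not run together (r = -0.18 over 40 windows, across windows). With 2 libraries per cell type this cannot tell whether same-numbered libraries were prepared together, and the labels do not say. A replicate block gave 4 and 2 bins, 0 and 0 windows and 3 and 0 fragments, with adjusted p of 0.141 and 0.182 for the windows 350 to 400 kb below and 800 to 850 kb above the viewpoint. Crossed pairing gave 0 and 0 bins, 0 and 0 windows and 1 and 0 fragments.

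Reversed log2 differences of the bins, the called windows and the named fragments, none of them called, were the following. With library size within 1 Mb and with the excess, they were -0.30 and -0.26 at lower 0 to 25 kb, -0.14 and -0.093 at lower 50 to 100 kb, -0.18 and -0.13 at lower 500 to 1000 kb, -0.39 and -0.35 at lower 1000 to 2000 kb, -0.62 and -0.58 at higher 0 to 25 kb, -0.16 and -0.12 at higher 100 to 200 kb and -0.39 and -0.34 at higher 200 to 500 kb, and the TEA fragment was at -0.020 within 1 Mb. Over all chromosomes they were 0.018 at lower 5000 kb to the end, 0.68 at higher 25 to 50 kb, 0.12 at higher 2000 to 5000 kb and 0.30 beyond. Higher 0 to 25 kb was -0.59 without 10 kb around the viewpoint. Higher 25 to 50 kb was 0.90 counted once and 0.15 capped, and ranged from -0.98 to 0.41 with each library left out. Higher 500 to 1000 kb was 0.51 counted once.

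Shares, as DN minus B in points, turned to -0.20 (lower side of 1 Mb reads) and -2.58 (lower side of 100 kb reads) with the lower neighbour kept in. The lower-side share within 100 kb turned to -3.84 with the background subtracted, -11.8 capped, -6.46 counted once, -9.38 with the neighbour and -1.70 without shared-count fragments, and the slope there to 0.083, 0.18, 0.25, 0.11 and 0.068. On the higher side that share turned to -0.94 and the slope to 0.0056 without 10 kb around the viewpoint, and the slope to 0.020 counted once. With each library left out these ranged from -0.15 to 23.2 (lower side of 100 kb reads), -8.57 to 9.28 and -7.66 to 22.3 (shares within 100 kb, lower and higher side), and -0.13 to 0.074 and -0.41 to 0.084 (slopes). Peaks in DN, B and both numbered 4, 5 and 0 with 10 times the neighbours, 20, 19 and 9 with 5 neighbours on each side and 8, 7 and 1 without shared-count fragments. The cause of these changes was not tested.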

Other observations

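Far from the locus, single fragments of chromosome 14 took large shares in single libraries. The highest lay 26.2 Mb above the viewpoint (chr14:80970102-80976337) and carried 46254 reads in DN replicate 2, which is 7.69% of its chromosome 14 reads, and 0 in the other 3 libraries. A fragment 10.5 Mb below the viewpoint carried 364 and 13524 reads in the DN libraries and 1038 and 2922 in those of B. A pair of fragments 39.7 and 40.6 Mb below it carried identical counts of 868 and 1461 in DN against 4698 and 3908 in B.

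Libraries of one cell type were not uniformly more alike than libraries of different cell types. Over the 40 windows of 50 kb, the correlation of log2 values across windows was 0.78 between the DN libraries, 0.54 between the B libraries and 0.25 to 0.64 between cell types. DN replicate 1 and B replicate 2 gave the 0.64. These windows share their distance from the viewpoint, so the values are a description.

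Cell type, genotype, organ and alignment folder cannot be told apart.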
